A study of Rattus norvegicus with 12 samples.

Results

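The subject here is how far the response of the rat left ventricle to angiotensin II (AngII) depends on dietary sodium. It was taken as an interaction over all 12 arrays of the study: the AngII change on low sodium minus the AngII change on normal sodium, on the log2 scale. The interaction was computed for 20020 of the 30367 probes on the array, which gave values for 11211 named genes. Genes were then described by whether their response turned sign between diets, was seen on normal sodium and lost on low sodium, or appeared on low sodium alone. A negative interaction means that AngII moved the gene up less, or down more, on low sodium than on normal sodium.

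AngII is the effector peptide of the renin-angiotensin system. It acts on its type 1 receptor to constrict vessels, retain sodium through aldosterone and drive growth and matrix deposition in the heart. Dietary sodium sets the activity of the same system: sodium restriction raises the body's own renin and AngII, and a high sodium intake lowers them.

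All rats were male Sprague-Dawley animals on a diet with 60% fructose for 8 weeks, a model of metabolic syndrome, so the fructose load is shared by every group. The diet held 0.64% NaCl (normal sodium) or less than 0.01% NaCl (low sodium). In the infused groups AngII was delivered under the skin at 200 ng per kg per minute over the last 4 weeks. Uninfused rats are described only as not infused, with no vehicle named, and the labels give neither the animals' age nor pooling. The 4 groups of 3 arrays are named by diet, and the infused ones by the added words with AngII. The labels do not say that the 3 samples of a group came from separate cages or extractions, so p-values measure the spread between these samples.

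The arrays were single-colour Agilent arrays, and their number limits the precision. Between 70.2% and 81% of probes per array were well above background, and no spot was saturated. On replicate 1 of the normal sodium group 88 spots were non-uniform, while other arrays had at most 3. Each of the 3 slides carried 1 array of every group, with the groups always at the same position, so position on the slide and group cannot be told apart. All 8 ventricular cardiomyocyte markers were well above background on all 12 arrays, as were 5 of 6 atrial markers, while the atrial peptide gene Bmp10 was on none. Levels are given as log2 signal relative to the 75th percentile of the array, and values with ± are limma estimates with their standard error (SE).

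The gene groups that stood furthest from 0 were mostly lower: AngII went with higher signal of these genes on normal sodium and with a smaller, near-zero or opposite difference on low sodium. They held interferon-response genes (median interaction -0.71, 26 of 28 below 0, against 54.6% of all genes). Cardiac stress genes (16 of 16) and smooth muscle markers (8 of 10) were also among them. Red cell and neutrophil markers had a low median (-0.66), but only 3 of 5 were below 0, near the share of all genes. The other 2, S100a8 and S100a9, went the other way. Fatty acid oxidation genes differed less, but 32 of 36 were below 0. Among the genes of smallest p in their response class were Plcd4, a phospholipase C, and Tuba3b, an alpha-tubulin, whose infused normal sodium arrays stood apart from the other 9. None of these differences passed the test after adjustment.

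No probe passed the test for the interaction. The smallest p-value adjusted over all 20020 probes (limma, Benjamini-Hochberg) was 0.51, against a threshold of 0.05. At an unadjusted p under 0.05 there were 1014 probes, 5.06% of those tested, near the share this threshold gives when no probe differs. They were 421 with a higher (2.1% of those tested) and 593 with a lower interaction (2.96%). The share of higher interactions was thus 41.5%, but it was 75.2% with normexp background correction, 62.7% on the authors' own values and 55.5% with the percentile taken over probes, so the balance of directions depends on the scaling. The median interaction over all probes was -0.04, and it was 0.08 with normexp, a shift that the normexp values quoted below include. The count was 629 without low sodium replicate 3, 623 without replicate 2 of normal sodium with AngII, 1553 without normal sodium replicate 3 and 526 without slide 2. By gene, 618 of 11211 (5.51%) were under 0.05, 2.44% of all genes with a higher and 3.08% with a lower interaction. The median SE of an interaction was 0.25, and the 95% interval was narrower than ±1 for 83.6% of probes and narrower than ±0.5 for 40.3%. With 3 arrays a group no interaction of any size passed after adjustment, so all differences below are given as values.

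The AngII change of each diet was taken from the same fit. It reached an unadjusted p under 0.05 at 1453 probes (7.26%) on normal sodium and at 342 probes (1.71%) on low sodium, with 0 probes on either diet after adjustment (limma). The difference between these counts was not tested.

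The response classes describe the 618 genes with an unadjusted interaction p under 0.05, with 0.3 on the log2 scale as the size that counts as a response. The response turned sign in 119 genes. It was seen on normal sodium and stayed under 0.3 on low sodium in 331 genes, and the reverse held in 67. No gene responded on both diets in the same direction with an unequal size, and 101 had responses under 0.3 on both. Over all 11211 genes the same sizes gave 254 genes that turned sign (2.27%), 1966 with a response on normal sodium alone (17.5%) and 590 on low sodium alone (5.26%), while 250 responded unequally in 1 direction (2.23%) and 8151 stayed under 0.3 on both diets (72.7%). Since the classes use the values of the interaction, they are a description of it.

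Among the 119 genes that turned sign, 82 were higher with AngII on normal sodium and lower with it on low sodium. Their median AngII change was 0.57 on normal sodium and -0.42 on low sodium. In the 37 genes of the opposite pattern the medians were -0.51 and 0.49. The median difference of low minus normal sodium was 0.45 without AngII and -0.62 with it in the 82 genes, and -0.51 and 0.55 in the 37. The interaction by which the genes were chosen is the second of these differences minus the first, so a gap between them is built into the choice. The 192 genes that were higher with AngII on normal sodium alone had medians of 0.52 on normal and -0.17 on low sodium, and the 139 genes lower on normal sodium alone had medians of -0.40 and 0.14. These counts moved with single arrays. The genes that turned sign numbered 241 without replicate 1 of low sodium with AngII and 323 without slide 1 (all arrays of replicate 1), and those on normal sodium alone numbered 655 without normal sodium replicate 3. They numbered 170 without low sodium replicate 3 or without replicate 2 of normal sodium with AngII, 216 without replicate 2 and 190 without replicate 3 of low sodium with AngII, 201 without slide 1 and 124 without slide 2. Those on low sodium alone numbered 109 without low sodium replicate 2, 165 without replicate 1 of low sodium with AngII, 43 without replicate 1 of normal sodium with AngII and 156 without slide 1.

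**Figure D1:**
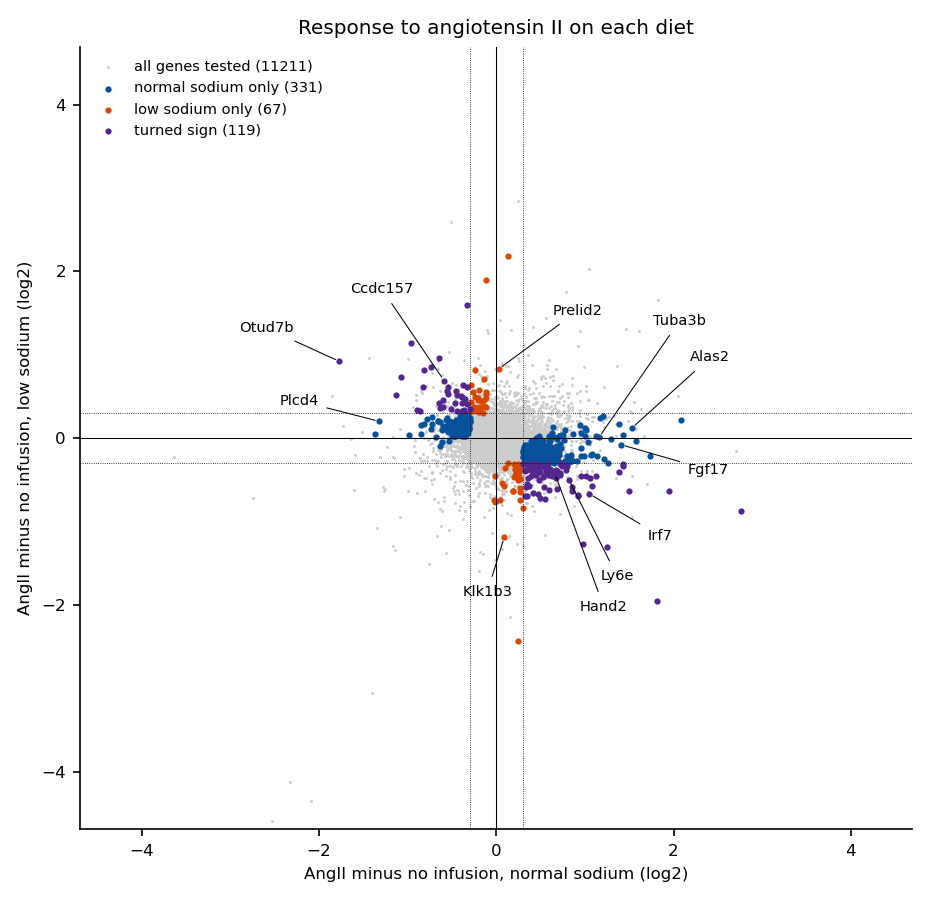
Each point is a gene, placed by its AngII change on normal sodium (x axis, log2) and on low sodium (y axis, log2), with the 11211 genes tested in grey and the genes of each response class among those with an unadjusted interaction p under 0.05 in colour. Dotted lines mark 0.3 and -0.3; the 331 genes of the normal sodium class lie along the x axis, the 67 of the low sodium class along the y axis and the 119 that turned sign in the upper left and lower right corners.

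In each class and direction, genes of smallest p are named, up to 4. Those that were up with AngII on normal sodium and down on low sodium were Trim34, Ly6e, Lgals9 and Hand2. Trim34 (a tripartite-motif gene), Ly6e (a lipid-anchored surface protein) and Lgals9 (galectin-9) are known as interferon-inducible. Ly6e stood at 0.54, -0.15 and 0.38 on normal sodium, 1.03, 1.42 and 0.79 with AngII, 0.50, 0.86 and 0.55 on low sodium, and 0.28, 0.14 and -0.01 on low sodium with AngII. Infused and uninfused arrays did not overlap on either diet, with the infused ones above on normal sodium and below on low sodium. The AngII changes were 0.82 ± 0.21 and -0.50 ± 0.21, and the interaction of -1.32 ± 0.29 had an adjusted p of 0.857 (limma). It was -0.84 without slide 2.

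Hand2, a transcription factor needed for heart development, followed the same course. It stood at -1.43, -1.09 and -1.40 on normal sodium, -0.62, -0.30 and -1.0 with AngII, -0.87, -0.95 and -0.75 on low sodium, and -1.08, -1.27 and -1.48 on low sodium with AngII. Here too the arrays of each diet separated by infusion, in opposite directions, and the 3 slides gave interactions of -1.01, -1.11 and -1.13. The interaction over all arrays was -1.08 ± 0.26. The interaction was -1.07 ± 0.25 for Lgals9 and -1.08 ± 0.23 for Trim34, whose signal is low and whose value was -0.26 with normexp.

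In the opposite direction, Ccdc157, a coiled-coil gene, stood at -2.53, -2.88 and -2.99 on normal sodium and at -3.13, -3.60 and -3.44 with AngII. On low sodium it stood at -3.51, -3.66 and -3.77, and with AngII at -2.79, -3.25 and -2.83. Every infused array was thus lower on normal sodium and higher on low sodium, with an interaction of 1.28 ± 0.25 (0.85 with normexp). Hs3st5, a heparan sulfate sulfotransferase, had 1.07 ± 0.23 and Smyd3, a lysine methyltransferase, 0.91 ± 0.22. Otud7b, a deubiquitinase, had 2.68 ± 0.62 at its brightest probe and 0.27 at its other tested probe, so its 2 probes disagree.

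Plcd4, a phospholipase C of the delta type, had the smallest p of all genes. Its levels were -2.34, -2.43 and -2.62 on normal sodium, -3.54, -3.90 and -3.93 with AngII, -2.46, -2.71 and -2.67 on low sodium, and -2.57, -2.51 and -2.16 on low sodium with AngII. Only the 3 infused normal sodium arrays stood apart, all below the other 9. Its AngII change came to -1.32 ± 0.15 on normal sodium and 0.20 ± 0.15 on low sodium, which gave an interaction of 1.52 ± 0.22 (unadjusted p = 2.66e-05, adjusted p = 0.51, limma). Its second probe gave 1.56. Cdkn1c, a cyclin-dependent kinase inhibitor, was lower with AngII on normal sodium by the same pattern, with an interaction of 0.68 ± 0.15 (0.36 at its other probe), as were Rep15, an effector of a Rab GTPase (0.91 ± 0.24), and the transmembrane protein gene Tmem218 (0.53 ± 0.15).

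Of the genes higher with AngII on normal sodium alone, the alpha-tubulin gene Tuba3b stood at -1.60, -2.06 and -1.77 on normal sodium and -0.96, -0.49 and -0.50 with AngII. On low sodium it stood at -1.32, -1.71 and -1.43, and at -1.46, -1.61 and -1.37 with AngII. The infused normal sodium arrays lay above all 9 others, and the AngII change was 1.16 ± 0.17 on normal and 0.01 ± 0.17 on low sodium. The interaction was -1.15 ± 0.24 for Tuba3b. Dnmt3a, a de novo DNA methyltransferase, had an interaction of -1.14 ± 0.25, with values on the slides of -1.35, -1.24 and -0.83. Its AngII change on low sodium, -0.28 ± 0.18, was just under the size of 0.3. For the growth factor gene Fgf17 the interaction was -1.49 ± 0.34 (-0.84 with normexp).

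A response on low sodium alone included a pair of tissue kallikrein genes, Klk1b3 and Klk1c3, which belong to a family of proteases that release kinins. Klk1b3 stood at -4.63, -4.35 and -4.27 on normal sodium, -3.79, -4.85 and -4.32 with AngII, -4.57, -4.84 and -4.33 on low sodium, and -6.35, -5.53 and -5.45 on low sodium with AngII. The 3 infused low sodium arrays were the lowest of the 12. It differed with AngII by -1.19 ± 0.29 on low sodium and 0.09 ± 0.29 on normal sodium, with an interaction of -1.29 ± 0.41 (-0.54 with normexp). Klk1c3 had -1.01 ± 0.32 (-0.57 with normexp), and its AngII change on normal sodium, 0.27 ± 0.23, was just under the size of 0.3. The slides were uneven, at -2.61, -0.19 and -1.06 for Klk1b3 and -2.03, -0.38 and -0.62 for Klk1c3, and without slide 1 the interactions were -0.62 and -0.50. The kallikrein genes are near-identical copies whose probes may share signal, so the pair is not independent.

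The other genes lower with AngII on low sodium alone were Apol9a, an apolipoprotein L (-0.67 ± 0.20), and the transcription factor gene Atf7 (-0.63 ± 0.19, and -0.18 with normexp). Their AngII changes on low sodium were -0.41 ± 0.14 and -0.37 ± 0.13. On normal sodium they were 0.26 ± 0.14 and 0.26 ± 0.13, of opposite sign and just under the size of 0.3, so both genes lie close to the class that turned sign. Among those higher on low sodium alone, Prelid2 stood at -2.67, -2.32 and -2.37 on low sodium and -1.70, -1.45 and -1.72 with AngII, while its normal sodium arrays lay between -2.02 and -1.64 in both groups. The uninfused low sodium arrays were the 3 that stood apart. Its interaction was 0.80 ± 0.20 at the brightest probe and -0.08 and 0.05 at the other 2 tested probes, so the probes disagree. Metrnl, a secreted meteorin-like protein, had 0.66 ± 0.18, Gulp1, an adaptor for the uptake of dying cells, 0.50 ± 0.14, and the zinc finger gene Zfp512b 0.48 ± 0.15.

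**Figure D2:**
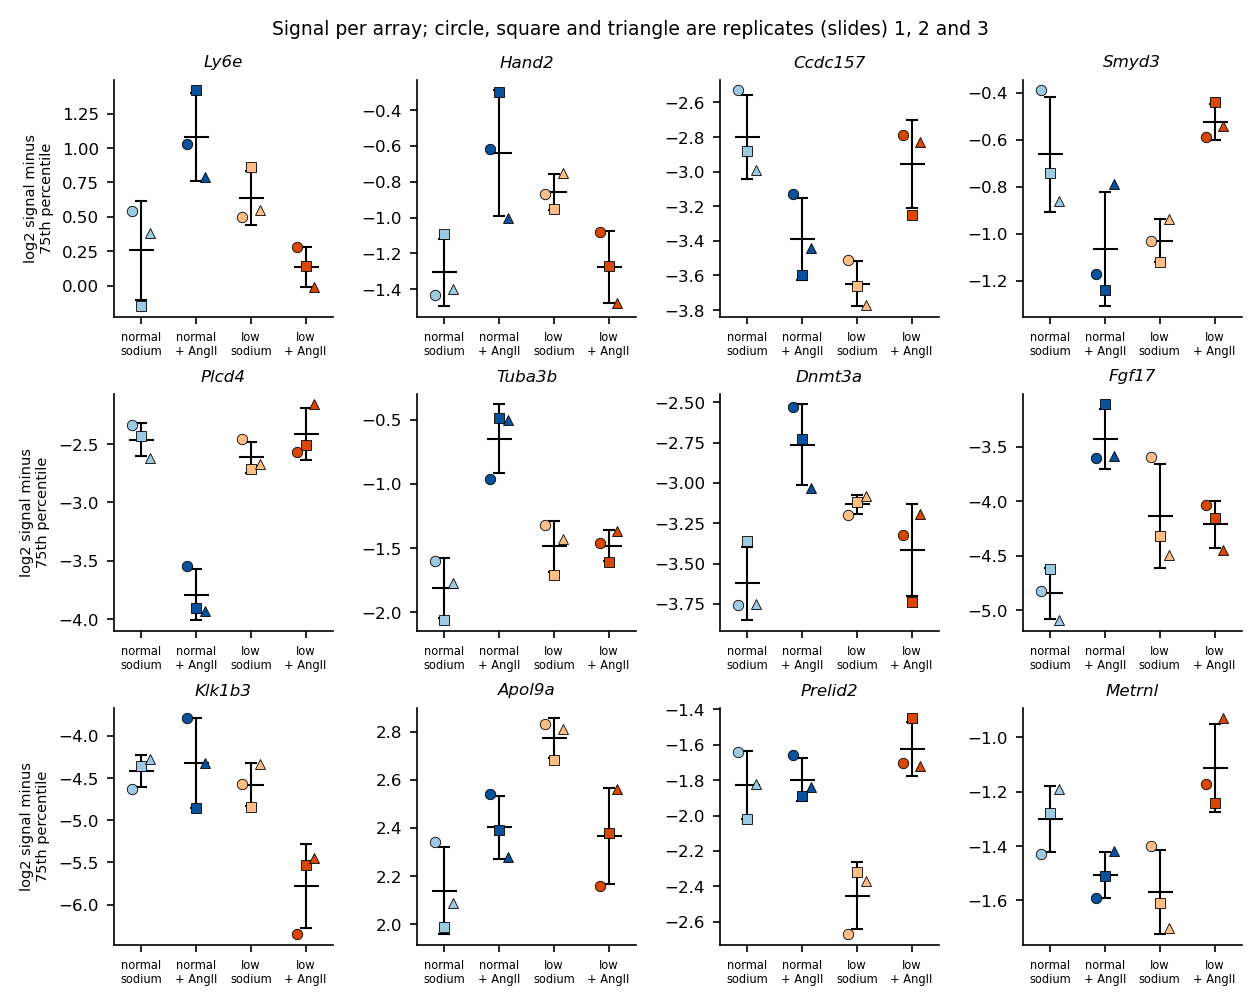
Log2 signal relative to the 75th percentile of the array (y axis) for 12 genes in the 4 groups (x axis), with 1 point per array shaped by slide, the bar at the group mean and whiskers of 1 SD (n = 3). Ly6e, Hand2, Ccdc157 and Smyd3 turned sign, Plcd4, Tuba3b, Dnmt3a and Fgf17 responded on normal sodium alone, and Klk1b3, Apol9a, Prelid2 and Metrnl on low sodium alone; the panels have separate y axes that do not start at 0.

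Gene groups were described from 35 textbook lists of pathways and cell type markers, of which 562 genes were tested. Of these, 36 genes (6.41%) had an unadjusted interaction p under 0.05, against 5.51% of all genes. No list member passed the adjusted threshold. The list medians ran from -0.71 for the interferon response to 0.27 for MHC class II, against a median of -0.03 over all genes, of which 54.6% were below 0.

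**Figure D3:**
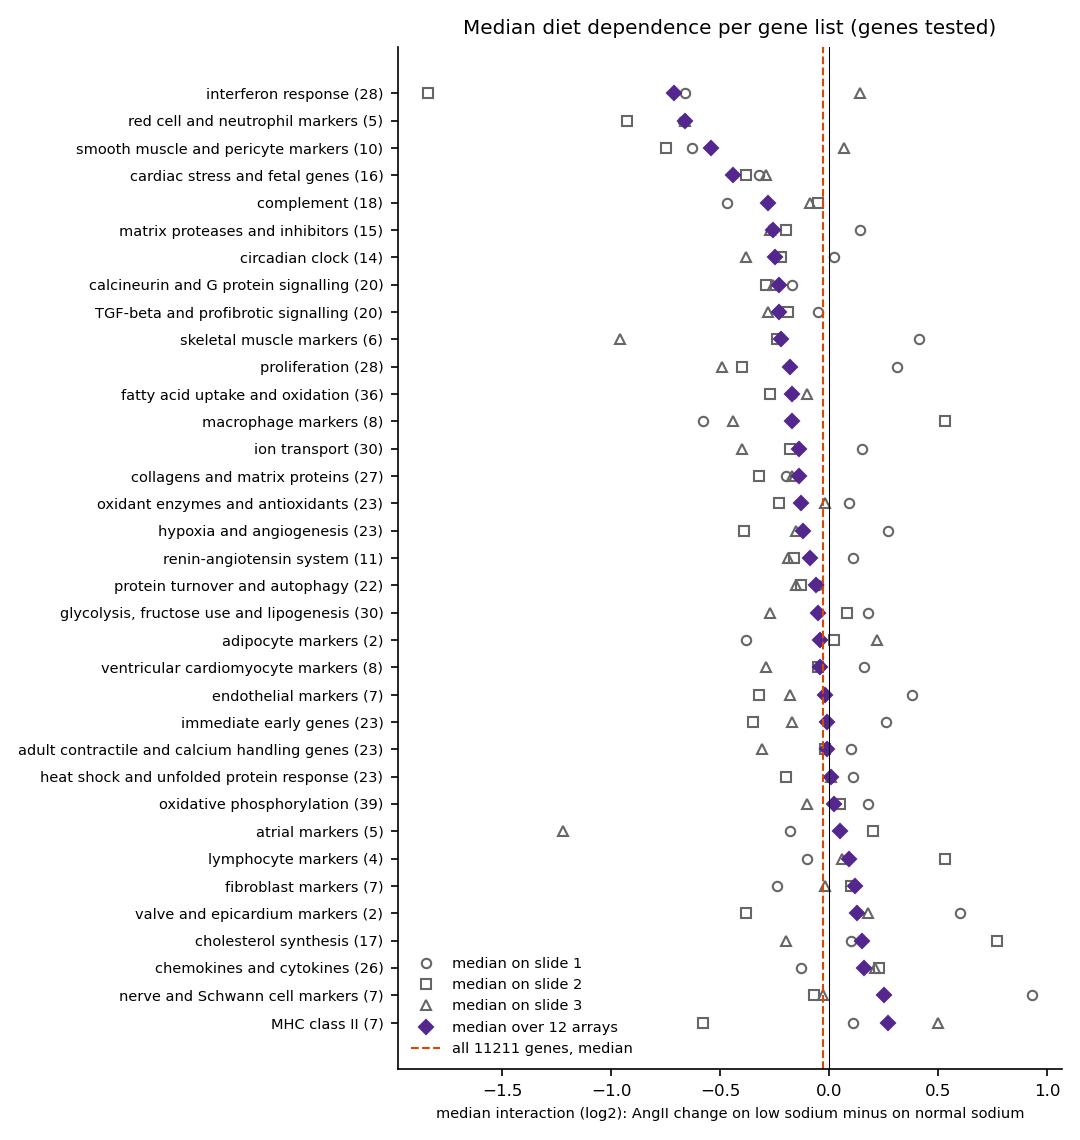
Median interaction (x axis, log2) of the tested genes in each of 35 lists (y axis, number of genes tested in brackets), over all 12 arrays (diamond) and within each slide (open symbols); the dashed line is the median of all genes, -0.03. The interferon list lies lowest at -0.71 with slide medians from -1.84 to 0.14, while the cardiac stress list at -0.44 has slide medians between -0.38 and -0.29.

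Interferon-response genes had the lowest median of the lists. Type I interferons signal through their receptor to a transcription factor complex that contains IRF9, binds the interferon-stimulated response element (ISRE) and switches on antiviral genes. Of 28 tested members 26 were below 0, with a median interaction of -0.71. The AngII change was above 0 for 24 members on normal sodium (median 0.41) and below 0 for 27 on low sodium (median -0.34). At an unadjusted p under 0.05, 9 of 28 had a lower interaction and 0 a higher one, against 3.08% and 2.44% of all genes. Under the same threshold 6 of the 28 turned sign, against 119 of all 11211 genes. The members with an interaction above 0 were Ifi27, at 0.27 ± 0.88, and Irf1, at 0.05 ± 0.29. Both were named after their values were seen, and both signs depended on single arrays.

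The group was uneven across slides. Its median interaction was -0.66 on slide 1, -1.84 on slide 2 and 0.14 on slide 3, and it was -0.29 without slide 2 and -1.20 without slide 3. The median centred level of the list was 0.33, -0.49 and -0.17 on normal sodium, 0.30, 0.57 and 0.17 with AngII, 0.15, 0.38 and -0.29 on low sodium, and -0.39, -0.34 and 0.07 on low sodium with AngII. Groups overlapped on both diets. Macrophage markers had slide medians of -0.58, 0.53 and -0.44 and lymphocyte markers of -0.10, 0.53 and 0.06. Over all arrays the median interaction was -0.17 for the 8 macrophage markers and 0.09 for the 4 lymphocyte markers tested. The part of immune cell content in the interferon values was not tested.

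Sequences are given for the 4 members with the smallest p whose promoter window held an ISRE match, because the list is defined by this response. Windows run from 250 bases before to 50 after the gene start (RefSeq, GRCr8), 5′ to 3′, with capitals marking the ISRE core (GAAA, any 2 bases, GAAA) or its reverse complement.

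Irf7, chr1:205799974-205800273, strand -: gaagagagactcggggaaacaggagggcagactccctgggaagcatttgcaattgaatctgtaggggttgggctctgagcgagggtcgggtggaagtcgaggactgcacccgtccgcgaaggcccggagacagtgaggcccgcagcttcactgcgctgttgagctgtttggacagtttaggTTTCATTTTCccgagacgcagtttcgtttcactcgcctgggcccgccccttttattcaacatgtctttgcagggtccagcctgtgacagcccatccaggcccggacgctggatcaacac

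Ifit3, chr1:241527076-241527375, strand +: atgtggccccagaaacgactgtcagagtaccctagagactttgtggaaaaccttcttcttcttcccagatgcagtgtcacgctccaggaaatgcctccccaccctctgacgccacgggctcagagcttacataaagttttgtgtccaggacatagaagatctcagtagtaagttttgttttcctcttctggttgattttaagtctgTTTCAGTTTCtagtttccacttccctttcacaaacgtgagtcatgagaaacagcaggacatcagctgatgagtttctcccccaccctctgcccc

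Ifih1, chr3:67683919-67684218, strand -: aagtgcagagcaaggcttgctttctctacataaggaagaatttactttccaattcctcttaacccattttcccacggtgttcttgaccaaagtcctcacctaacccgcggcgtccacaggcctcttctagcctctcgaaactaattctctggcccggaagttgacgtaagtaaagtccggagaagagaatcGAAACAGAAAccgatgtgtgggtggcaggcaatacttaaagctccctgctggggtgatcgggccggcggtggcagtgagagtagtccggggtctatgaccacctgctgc

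Psmb8, chr20:4656982-4657281, strand -: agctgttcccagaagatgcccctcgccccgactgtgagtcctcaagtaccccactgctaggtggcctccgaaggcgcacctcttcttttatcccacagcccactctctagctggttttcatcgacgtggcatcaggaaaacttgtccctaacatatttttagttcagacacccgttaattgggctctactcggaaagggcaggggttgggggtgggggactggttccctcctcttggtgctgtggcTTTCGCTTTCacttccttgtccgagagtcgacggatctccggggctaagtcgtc

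The motif was searched on both strands. It was found in 13 of the 20 list members with a window in the table (65.0%), against 3.03% of the windows of 9196 tested genes. A match describes the letters in the window and does not show binding. Irf7, Parp9 and Usp18 illustrate the members: Irf7 and Irf9 are transcription factors of the response, Usp18 removes ISG15 and dampens interferon signalling, and Parp9 is an interferon-inducible ADP-ribosyltransferase family member.

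Irf7 stood at 1.01, 0.20 and 0.79 on normal sodium, 1.49, 1.96 and 1.68 with AngII, 1.92, 2.12 and 0.99 on low sodium, and 0.88, 1.02 and 1.11 on low sodium with AngII. Infused arrays lay above all uninfused ones on normal sodium, while on low sodium the groups overlapped at replicate 3. The AngII change was 1.05 ± 0.29 on normal and -0.67 ± 0.29 on low sodium, the interaction -1.72 ± 0.41 (unadjusted p = 0.00161, adjusted p = 0.857, limma). All 3 slides gave a negative value for Irf7, at -1.51, -2.87 and -0.78.

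The interaction was -1.02 ± 0.34 for Usp18, -0.78 ± 0.27 for Irf9 and -0.89 ± 0.33 for Parp9 (-0.48 with normexp), each near 0 on slide 3 (-0.01, 0.09 and 0.08). Without slide 2 they were -0.53, -0.34 and -0.28. Further members, named after their values were seen, were Ifit3 (-1.50 ± 0.56), the RNA sensor gene Ifih1 (-0.81 ± 0.31, and -0.38 with normexp), the immunoproteasome subunit gene Psmb8 (-0.63 ± 0.28) and Rtp4 (-1.60 ± 0.72). Isg15, a ubiquitin-like modifier, and Mx1, an antiviral GTPase, had -1.36 ± 0.63 and -1.62 ± 0.84, with unadjusted p of 0.0553 and 0.0793 (limma). Without slide 2, Ifit3 had -0.55, Rtp4 -0.39, Ifih1 -0.44, Isg15 -0.45, Mx1 -0.53 and Irf7 -1.14.

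Red cell and neutrophil markers were the list with the next lowest median, -0.66, with values on the slides of -0.67, -0.93 and -0.66. Of its 5 tested genes 3 were below 0 and 2 above, against 54.6% of all genes below 0, and the median is the value of the neutrophil gene Lcn2. The median was -0.30 without slide 2, -0.27 without slide 3, and -0.43 and -0.44 without replicate 3 of low sodium with AngII and normal sodium replicate 3. Erythroid cells make haem through the enzyme encoded by Alas2 and fill with globin. Alas2 stood at 0.90, 0.01 and 0.28 on normal sodium, 1.84, 1.85 and 2.08 with AngII, 1.57, 0.77 and 0.81 on low sodium, and 1.31, 0.94 and 1.26 on low sodium with AngII. The infused normal sodium arrays were the highest 3 of the 12. Infusion went with a difference of 1.53 ± 0.26 on normal and 0.12 ± 0.26 on low sodium, with an interaction of -1.41 ± 0.36 and slide values of -1.21, -1.68 and -1.36.

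The beta-globin gene Hbb had -0.70 ± 0.21 at its brightest probe and -1.25 at the other. After these values were seen, 11 erythroid genes were looked up, Alas2 and Hbb included. All 11 were below 0, against 54.6% of all genes, with a median of -0.65, and 6 of them had an unadjusted p under 0.05, against 3.08% of all genes with a lower interaction. Since they were looked up with values in view, these counts are a description, and Hba-a1, Slc4a1, Bpgm and Fech changed sign when single arrays or slides were left out. Hbb-b1 had -0.79 ± 0.21, Hbb-bs -0.92 ± 0.34, Hba-a3 -0.93 ± 0.36 and Klf1, the erythroid transcription factor, -0.65 ± 0.26 (-0.11 with normexp). Hba-a1 had -0.10 ± 0.31 and its other probe -1.19, Ahsp, the chaperone of alpha-globin, -0.55 ± 0.71, Bpgm -0.35 ± 0.35, Slc4a1, the band 3 anion exchanger, -0.34 ± 1.34, and Fech, the last enzyme of haem synthesis, -0.22 ± 0.25. The globin genes are near-identical copies whose probes may share signal, so they are not independent.

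The neutrophil genes of the list pointed both ways. S100a8 and S100a9, which encode calprotectin, had 1.07 ± 0.59 and 0.51 ± 0.75, the latter negative without normal sodium replicate 3, and Lcn2 had -0.66 ± 0.46. The summed level of the 5 tested list genes, in units of the 75th percentile signal, ran from 52.4 to 68.3 on normal sodium, 92.7 to 111 with AngII, 60.4 to 83.7 on low sodium and 66.6 to 79.8 on low sodium with AngII. All 5 were well above background on every array. In whole tissue, fewer cells of a type and less RNA per cell cannot be told apart, and the amount of blood in the samples was not measured. The part of blood in the other results was not tested.

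Windows of the erythroid genes with a match and the smallest p are shown as the erythroid examples; capitals mark AGATAA, the core of a GATA site, or CCACACCC, a CACCC box.

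Alas2, chrX:22895200-22895499, strand +: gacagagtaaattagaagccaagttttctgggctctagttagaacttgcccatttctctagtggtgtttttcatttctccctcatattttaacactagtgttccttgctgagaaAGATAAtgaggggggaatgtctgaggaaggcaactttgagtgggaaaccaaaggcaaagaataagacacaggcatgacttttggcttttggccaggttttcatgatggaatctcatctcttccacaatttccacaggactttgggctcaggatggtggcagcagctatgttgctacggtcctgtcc

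Hbb, chr1:167663672-167663971, strand -: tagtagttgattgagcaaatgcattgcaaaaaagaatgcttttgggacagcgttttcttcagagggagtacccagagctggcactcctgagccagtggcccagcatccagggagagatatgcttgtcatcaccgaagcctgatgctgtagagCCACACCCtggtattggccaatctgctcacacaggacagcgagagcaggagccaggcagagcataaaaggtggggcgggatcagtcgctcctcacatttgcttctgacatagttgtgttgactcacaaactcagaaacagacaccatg

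Both motifs were searched on both strands. Of the 9 erythroid genes with a window in the table, AGATAA or its reverse complement was found in 2 (Alas2 and Fech) and CCACACCC in 1 (Hbb). The shares over the windows of tested genes were 6.72% and 3.71%.

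**Figure D4:**
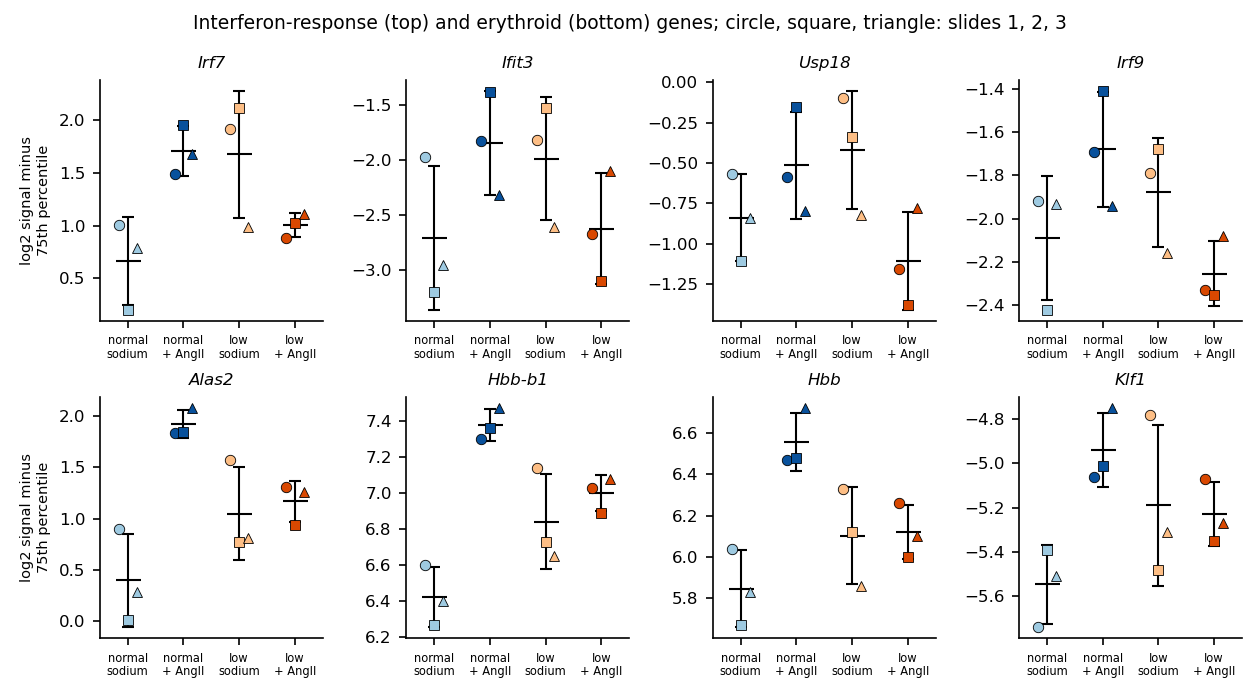
Log2 signal relative to the 75th percentile of the array (y axis) by group (x axis) for 4 interferon-response genes (top) and 4 erythroid genes (bottom), with 1 point per array shaped by slide, group means and whiskers of 1 SD (n = 3). Irf7 has a negative interaction on all 3 slides while Usp18 and Irf9 are near 0 on slide 3 (triangles), and the infused normal sodium arrays are the highest for Alas2, Hbb-b1 and Hbb.

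Cardiac stress and fetal genes, which the heart switches on under pressure load, lay on the same side of 0. All 16 tested members were below 0, against 54.6% of all genes, with a median of -0.44. The AngII change was above 0 in all 16 on normal sodium (median 0.52) and in 7 on low sodium (median -0.02). Of all 11211 genes, 5905 were above 0 on normal sodium and 5126 on low sodium, so the low sodium count is near the general share. The slide medians were -0.32, -0.38 and -0.29, and normexp gave -0.21. Among the 16, Acta2, at -0.79 ± 0.28, was the only member with an unadjusted p under 0.05.

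The natriuretic peptide gene Nppb, a marker of wall stress, stood at 3.89, 4.88 and 3.54 on normal sodium, 4.66, 5.49 and 4.57 with AngII, 3.44, 3.56 and 2.81 on low sodium, and 3.69, 3.26 and 3.45 on low sodium with AngII. Groups overlapped on both diets. Its AngII change was 0.81 ± 0.35 on normal and 0.20 ± 0.35 on low sodium, and the interaction of -0.61 ± 0.50 did not pass (unadjusted p = 0.249, limma). Nppa, the atrial natriuretic peptide gene, had -0.14 ± 1.16 and Acta1, skeletal alpha-actin, -0.10 ± 0.43, and both turned positive when single arrays were left out.

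Smooth muscle and pericyte markers had a median of -0.54, with 8 of 10 below 0, against 54.6% of all genes. At an unadjusted p under 0.05, 3 had a lower interaction and 0 a higher one, against 3.08% and 2.44% of all genes. The smooth muscle actin gene Acta2 stood at -1.10, -1.25 and -0.92 on normal sodium, -0.12, -0.75 and -0.59 with AngII, -0.53, -0.66 and -0.52 on low sodium, and -0.47, -1.13 and -0.65 on low sodium with AngII. The uninfused normal sodium arrays lay below the infused ones, and on low sodium the groups overlapped. Pdgfrb, the pericyte receptor for PDGF-B, had -0.50 ± 0.21 (-0.29 with normexp), and Myh11, smooth muscle myosin heavy chain, chosen after its values were seen, -0.59 ± 0.32. Lmod1, leiomodin, had -1.95 ± 0.72 at a probe that only 1 of the 3 normal sodium arrays showed well above background, and -0.01 at its other probe. The list's slide medians were -0.63, -0.75 and 0.07, its median was -0.33 without replicate 2 of low sodium with AngII and -0.25 with normexp, and its summed level overlapped between infused and uninfused arrays on low sodium.

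Collagens and matrix proteins, the substance of fibrosis, differed less. The median was -0.14, with 19 of 27 below 0, against 54.6% of all genes. The slide medians were -0.20, -0.32 and -0.17, and the median ran from -0.27 without normal sodium replicate 3 to -0.07 when other arrays were left out. Both diets kept a median AngII change above 0, at 0.31 on normal and 0.16 on low sodium. Col3a1, a fibrillar collagen, stood at 3.83, 3.55 and 3.86 on normal sodium, 4.25, 4.16 and 4.26 with AngII, 3.17, 3.34 and 3.45 on low sodium, and 3.28, 3.31 and 3.43 on low sodium with AngII. The normal sodium arrays separated by infusion, and the low sodium arrays overlapped and lay below all 6 of them. The interaction was -0.46 ± 0.17. Postn, periostin, had -1.08 ± 0.29, but only 1 of the 3 normal sodium arrays showed it well above background and normexp gave -0.22. Col1a1 had -0.41 ± 0.29 at its brightest probe and -0.76 at its other tested probe.

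The list of TGF-beta and profibrotic signalling had a median of -0.23 with 14 of 20 below 0, against 54.6% of all genes. Its median was -0.02 with normexp and -0.10 without slide 2. Tgfb1, a main profibrotic ligand, had -0.65 ± 0.37 (unadjusted p = 0.109, limma), with values on the slides of 0.18, -1 and -1.14. The renin-angiotensin list had a median of -0.09 with 7 of 11 below 0, against the same 54.6%, and no member under an unadjusted p of 0.05. The type 1 receptor gene Agtr1a had 0.11 ± 0.17. Among the inhibitors of matrix proteases, Timp4 had -0.86 ± 0.39 and Timp2 0.51 ± 0.22.

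Genes of fatty acid uptake and oxidation, the main fuel route of the heart, had small values of mostly the same sign. Of 36 members 32 were below 0, against 54.6% of all genes, with a median of -0.17 and slide medians of -0.17, -0.27 and -0.10. The AngII change was below 0 in 33 members on low sodium (median -0.19) and in 16 on normal sodium (median 0.04). Of all 11211 genes, 6085 were below 0 on low sodium and 5306 on normal sodium, so the normal sodium count is near the general share. Across alternatives and single arrays left out, the median interaction ran only from -0.23 to -0.12. The median centred level was highest on low sodium without AngII, at 0.09, 0.13 and 0.11, and was 0.02, -0.11 and -0.09 on low sodium with AngII.

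Lpl, the lipase that frees fatty acids from plasma lipoproteins, stood at 3.27, 3.65 and 3.44 on normal sodium, 3.80, 3.85 and 3.97 with AngII, 4.19, 4.25 and 3.87 on low sodium, and 3.53, 3.51 and 4.13 on low sodium with AngII. Infused arrays lay above uninfused ones on normal sodium, and on low sodium replicate 3 overlapped. The interaction was -0.80 ± 0.26. Ech1, a dienoyl-CoA isomerase of beta-oxidation, had -0.47 ± 0.17, Hadhb, the trifunctional protein beta subunit, -0.29 ± 0.15, and Cpt1b, the muscle carnitine palmitoyltransferase, -0.19 ± 0.15. Acaa2, a thiolase, and Eci1, an enoyl-CoA isomerase, chosen after their values were seen, had -0.66 ± 0.33 and -0.40 ± 0.19.

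**Figure D5:**
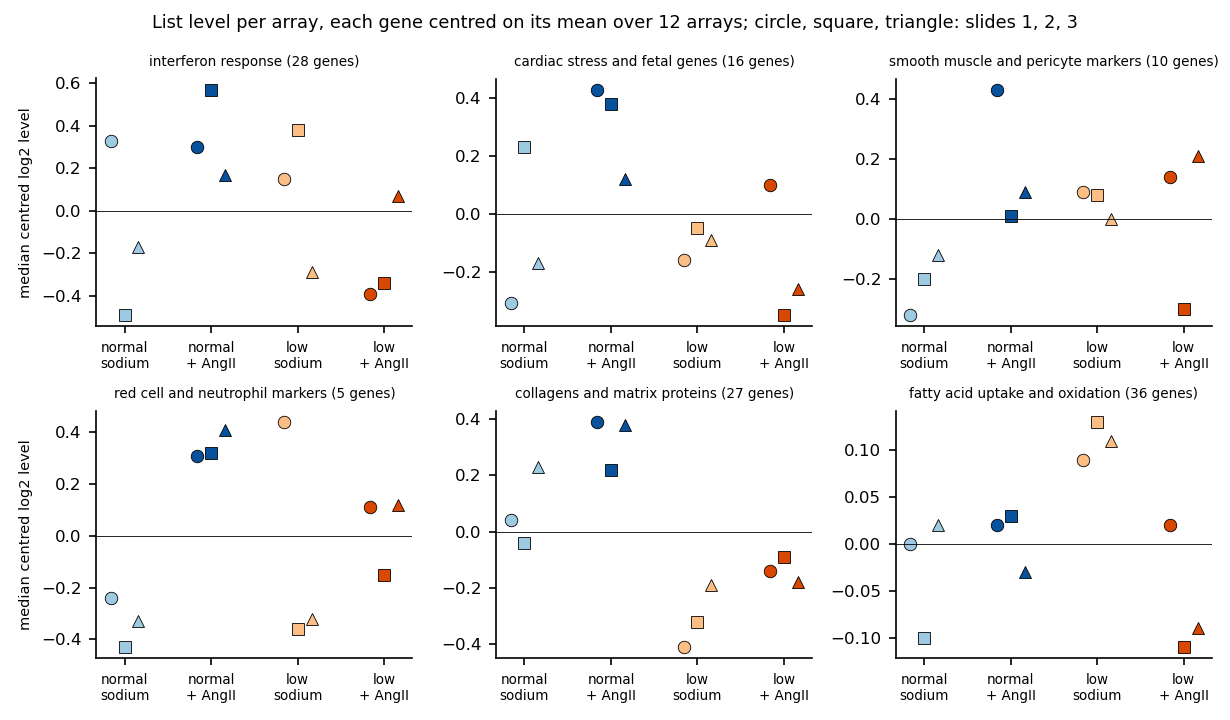
Median level of 6 gene lists per array (y axis, log2, each gene centred on its mean over the 12 arrays) in the 4 groups (x axis), with 1 point per array shaped by slide. Fatty acid genes are highest on low sodium without AngII at 0.09 to 0.13, red cell and neutrophil markers highest on normal sodium with AngII except for 1 low sodium array at 0.44, and interferon genes are scattered within groups.

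Single members of other lists were named where their unadjusted p was under 0.05. In complement (median -0.28, 13 of 18 below 0, against 54.6% of all genes), C2 had -0.81 ± 0.27 and C1s -0.44 ± 0.18. Among oxidant enzymes, Ncf1, a cytosolic subunit of the phagocyte NADPH oxidase, stood at 3.72, 4.11 and 3.94 on low sodium and at 3.55, 3.09 and 2.93 with AngII, without overlap. Its normal sodium arrays lay between 3.46 and 3.70 in both groups, and the interaction was -0.72 ± 0.23. In ion transport, carbonic anhydrase 4 (Car4) had 0.70 ± 0.25 and the sodium, potassium and chloride cotransporter gene Slc12a2 -0.50 ± 0.20.

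In cholesterol synthesis (median 0.15, 12 of 17 above 0, against 45.4% of all genes), Cyp51 had 0.53 ± 0.20 and Sc5d 0.54 ± 0.23. The list's median was -0.15 without slide 2, so its sign rests on that slide. Among chemokines and cytokines, Tnf had 0.69 ± 0.27, the galectin gene Lgals3 0.54 ± 0.24 (0.16 without slide 2), and Cxcl12 -0.47 ± 0.16 against 0.26 at its other probe. Klf2, an endothelial flow-responsive factor, had -0.62 ± 0.28 (-0.41 with normexp), and the stress-induced pseudokinase gene Trib3 -0.95 ± 0.33 (-0.57 with normexp). Xbp1, a transcription factor of the unfolded protein response, had 0.49 ± 0.22. Aplnr, the apelin receptor, had -0.73 ± 0.31 and Pgf, placental growth factor, 0.54 ± 0.24. Without slide 2 the interaction was 0.31 for Cyp51, -0.32 for Klf2 and -0.46 for Aplnr, and without slide 1 it was 0.33 for Sc5d, while Pgf had 0.24 without slide 3.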

How the data were processed

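Left ventricular RNA was measured on 12 single-colour Agilent arrays, and samples were grouped by diet and infusion from their titles. Per the file headers, the processed signal intensities were made by Agilent Feature Extraction 10.7.3.1, with background subtraction inside each array and no scaling across them. Version 11.0.1.1 of that program stands in the submitters' processing notes, with R 3.3.04 and limma. Other columns of the deposited files hold median pixel intensities of spot and background, or flags of 0 and 1. The authors' own matrix holds log2 values of 20438 probes, and the method that scaled them is not given in the sources used here. Its column medians lay between 8.81 and 8.95, each column matched its array's scanner values (rho over probes between 0.996 and 0.999, Spearman), and its centring is unknown.

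Control spots (1377) and spots with an outlier flag (296 to 421 per array) were left out. The log2 processed signal was reduced by the array's 75th percentile over non-control spots, and spots of one probe were averaged. A probe was tested when at least 0.5 of its spots were well above background on all 3 arrays of at least 1 group (20020 of 30367 probes), and 60 of them lacked a value on some array, which the fit left out. RefSeq (GRCr8) identifiers gave 18758 probes 1 symbol, and 13280 tested probes stood for 11211 genes. The brightest tested probe gave a gene's value. Limma 3.58.1 in R 4.3.3 fitted 1 mean per group with moderated variances (2.61 prior degrees of freedom) and two-sided tests, with Benjamini-Hochberg adjustment over all probes at 0.05. The fit was tested on simulated data.

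Slide and replicate number are the same factor. Same-numbered arrays had residuals correlated above 0.1 in 17 of 18 pairs (0.0469 to 0.432). The median between arrays of other numbers and groups was -0.181. Residuals were taken from group means, so this median is tied to the same-number correlations and is not an independent baseline. The fit with the replicate block and the values within slides are therefore given.

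The lists and the genes they hold were chosen with earlier results of these data known. Named genes were the 4 with the smallest p per response class and direction, up to 4 members of a list with unadjusted p under 0.05, or else the 1 with the smallest p, and genes of general interest in AngII studies, of which those that bear on the results are printed. Automatic symbols were passed over, and 1 gene that met the rule is not reported here. Genes outside the rule are named as chosen after their values were seen.

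Alternatives were normexp background correction (offset 50, on median pixel intensities, which the files hold in place of means), quantile normalization, the authors' values, other filters on dim probes, the replicate block, array weights, a variance trend, the mean over a gene's probes, other class sizes and thresholds, and leaving out arrays or slides. Taking the percentile over averaged probes was added after the data were seen.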

Additional observations from a re-analysis of the deposited data

How the results depend on the processing

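No probe passed the adjusted threshold under any of the 24 alternatives to which the count applies. The number of probes at an unadjusted p under 0.05 lay between 934 and 1315 with all arrays, and between 526 and 1553 with arrays or slides left out. With the replicate block (the paired analysis) it was 1138, and the block changed no call. The genes that turned sign numbered 67 with normexp, 200 with array weights, 274 at a size of 0.2 and 29 at 0.5, and 94 to 323 with arrays left out. Those on normal sodium alone numbered 175 at 0.5 and 124 to 655 with arrays left out, and those on low sodium alone 113 with array weights, 39 at 0.5 and 43 to 165. At an unadjusted p under 0.01 the classes held 36, 38 and 7 genes. The cause of these shifts was not tested beyond the stricter or looser threshold itself.

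The cardiac stress median was -0.21 with normexp, -0.31 on the authors' values, -0.57 with array weights and -0.39 with the mean over probes or the percentile over probes, and -0.63 to -0.34 with arrays left out. The TGF-beta median was -0.02 with normexp, -0.07 on the authors' values and -0.29 to -0.10 with arrays left out. Leaving out arrays gave -0.80 to -0.27 for red cell and neutrophil markers, -0.27 to -0.07 for collagens, -0.30 to -0.08 for complement, -0.17 to 0.01 for the renin-angiotensin list and -0.15 to 0.48 for cholesterol synthesis.

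Of 2098 gene values recomputed, 36 changed sign, all for 10 genes whose interactions were no larger than about their SE. With array weights Acta1 was 0.09 and Ifi27 -0.40, and with the mean over probes Irf1 was -0.04. With arrays left out Nppa ran from -0.83 to 0.88, Acta1 from -0.39 to 0.26, Agtr1a from -0.04 to 0.26, Ifi27 from -0.52 to 0.89, Irf1 from -0.33 to 0.33, Hba-a1 from -0.50 to 0.11, S100a9 from -0.27 to 1.75, Slc4a1 from -1.45 to 1.15, Bpgm from -0.59 to 0.02 and Fech from -0.37 to 0.03. The interactions of some dim probes shrank with normexp, which adds an offset of 50. They were -0.16 for Lmod1, -0.22 for Postn, -0.26 for Trim34, -0.18 for Atf7 and -0.11 for Klf1. Lmod1 and Postn were not well above background on every array, while Trim34, Atf7 and Klf1 were. The cause of this shrinkage was not tested.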
